A study of Homo sapiens with 12 samples.

Results

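The response of MDA-MB-231 cells to alisertib was described by comparing 3 libraries of alisertib-treated cells with 3 libraries of untreated cells, 6 of the 12 RNA sequencing libraries of the series. MDA-MB-231 is an established cell line from a human triple-negative breast cancer. Alisertib is a drug that blocks Aurora A, a kinase of mitosis. The treated cells had the agent for 48 h. The untreated cells are labelled as having had no treatment, and the labels name neither a dose nor a solvent control. All cells were grown in DMEM with 10% FBS. The remaining libraries were 3 from cells given TGFβ and 3 from cells given TGFβ with alisertib for the same time. They entered the filter, the scaling factors and the estimate of spread behind all tests, and their levels are given only where named. Separate cultures for the 3 libraries of a group are not named in the labels, so the p-values rest on the spread between libraries alone, and that may be technical. Members are all genes that passed a filter on low counts, 20571 of the 57773 genes in the deposited table, and of the 37202 left out, 21267 had no read in any of the 12 libraries.

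Aurora A is activated by TPX2 on spindle microtubules and is needed for centrosome maturation and bipolar spindle assembly. Cells in which it is inhibited are known to be delayed in mitosis and often to leave it with an abnormal chromosome number. The genes of DNA replication are transcribed as cells enter S phase under E2F factors, and the genes of cholesterol and fatty acid synthesis under the sterol-sensing SREBP factors. Many genes of secreted cytokines and proteases are targets of the AP-1 and NF-kB factors.

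Levels are CPM, read counts divided by the TMM-scaled total of the library. A gene was called, and is said to have risen or fallen, at an adjusted p under 0.05 in the edgeR quasi-likelihood test. Fold changes are edgeR's on the log2 scale with their standard error (SE), over 3 libraries a group. A ± after a level in CPM is instead the standard deviation (SD) over the 3 libraries, beside their mean. Total counts were 93701658 to 100328721 in untreated and 97048328 to 105563951 in alisertib libraries. The mesenchymal-type markers of the line were present, with all 10 tested and a summed level of 1276 to 1347 RPKM untreated and 1389 to 1456 RPKM with alisertib. RPKM are the authors' values, scaled to library total and gene length. Of 15 leukocyte markers, 11 were under 0.1 RPKM in both groups, and their summed level was 19.6 to 26.5 RPKM untreated and 29.2 to 32 RPKM with alisertib, with 3 at 0. Endothelial markers summed to 3.13 to 3.82 and 4.88 to 5.22 RPKM. TIE1, an endothelial receptor, had 0 reads in each untreated library and 15, 8 and 7 reads in the alisertib libraries.

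One library in each group stood apart from its partners: untreated 1, alisertib 9, TGFβ 6 and combined 10. GC content was compared over the 11083 genes that had a GC value and a mean of at least 5 CPM over the 12 libraries. Across them, the deviation of these 4 libraries from their group mean had a Spearman correlation with the GC content of the gene of -0.79 to -0.74, against 0.19 to 0.81 in the other libraries. Each group mean includes the library itself, so a deviation of 1 library pushes those of its partners the other way. The opposite signs are therefore not independent. The fold change of alisertib against untreated had a rho of -0.18 with GC content over these genes. It was -0.33 when the 4 libraries were left out, over those of these genes that passed the filter there. These are descriptions over genes, which are not independent, and share the libraries compared. Median GC content was 48.8% in genes called higher, 48.8% in genes called lower and 49.3% in those not called. The part of GC content in the results below was not tested. Counts of calls are therefore given with all libraries and without these 4. The 4 were picked from these same data for their deviation, so leaving them out lowers the spread within groups. Higher counts without them are thus no independent check.

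Of the tested genes 1387 were called (6.74%), 730 higher (3.55%) and 657 lower (3.19%). Changes were small: the median log2 fold change was 0.45 in genes called higher and -0.36 in genes called lower, against -0.01 over all tested genes. Past 2-fold, 106 of the called genes rose and 25 fell. At a mean of 5 CPM or more over the 6 libraries, 992 genes were called, of which 6 rose past 2-fold and 0 fell past it. Without the 4 libraries that stood apart 5073 genes were called, 2272 higher (11.0%) and 2801 lower (13.5%), and 1342 of the 1387 were among them with the same sign. With only the 6 libraries in the fit 623 were called (3.20%), 354 higher (1.82%) and 269 lower (1.38%). The values of the 2 groups did not overlap in 4447 tested genes (21.6%), 2305 higher (11.2%) and 2142 lower (10.4%), and in 1371 of the 1387 genes called.

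Many genes of DNA replication fell. Of 97 genes of S phase tested, 40 fell (41.2%, against 3.19% of all tested genes), 1 rose and 56 were not called, with a list median of -0.20 on the log2 scale. The groups did not overlap in 50 of the 97 on the lower side and in 1 on the higher, against 10.4% and 11.2% of all tested genes. Without the 4 libraries apart, 58 fell and 7 rose, against 13.5% and 11.0% of all genes. Without alisertib library 8 the number that fell was 24, with 300 of all 21035 genes tested there called lower. In bulk RNA, fewer cells in S phase and less RNA per cell cannot be told apart.

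The falls ran through the steps of replication. Licensing and initiation genes, which load the helicase on origins and fire them, fell in 10 of 26 cases. Fork and polymerase genes fell in 13 of 29, genes of nucleotide synthesis in 5 of 18, and E2F factors and S-phase cyclins in 6 of 14. Chromatin assembly and maintenance methylation genes, which package and copy the marks of new DNA, fell in 6 of 10.

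Promoter sequences of S-phase genes that fell are shown because the E2F element is the known common feature of their transcription. They are from RefSeq (GRCh38.p14), 5′ to 3′ on the strand of the gene, with matches to TTTGGCGC or TTTCCCGC on either strand in capitals. They belong to MCM6 (chr2:135876511-135876610, minus strand), GINS2 (chr16:85688955-85689054, minus strand), PCNA (chr20:5126628-5126727, minus strand), LIG1 (chr19:48170405-48170504, minus strand) and E2F1 (chr20:33686386-33686485, minus strand).
MCM6: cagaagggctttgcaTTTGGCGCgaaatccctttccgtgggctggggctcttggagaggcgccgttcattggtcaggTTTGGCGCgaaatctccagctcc
GINS2: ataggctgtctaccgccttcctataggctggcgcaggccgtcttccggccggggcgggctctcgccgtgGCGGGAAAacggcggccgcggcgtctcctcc
PCNA: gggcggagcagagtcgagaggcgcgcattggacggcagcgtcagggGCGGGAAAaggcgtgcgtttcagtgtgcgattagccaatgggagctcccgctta
LIG1: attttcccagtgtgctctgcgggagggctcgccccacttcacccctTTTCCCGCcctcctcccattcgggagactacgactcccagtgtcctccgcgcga
E2F1: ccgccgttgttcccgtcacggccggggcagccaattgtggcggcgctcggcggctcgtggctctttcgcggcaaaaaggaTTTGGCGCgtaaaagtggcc

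In the 250 bases before the start, 1 or both of these motifs stood in 13 of the 34 S-phase genes that fell and had a promoter entry (38.2%). They stood in 7 of 49 S-phase genes that were tested and not called (14.3%), in 366 of 12439 promoters of tested genes (2.94%) and in 1.96% of all 27305 promoters. Of all genes called lower 30 of 498 held one (6.02%), and of all genes called higher 9 of 495 (1.82%). MCM6 held 2 matches, and the match of E2F1 began 20 bases before the start. A promoter with both was counted once, and a match is a description, not a site of binding.

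**Figure D1:**
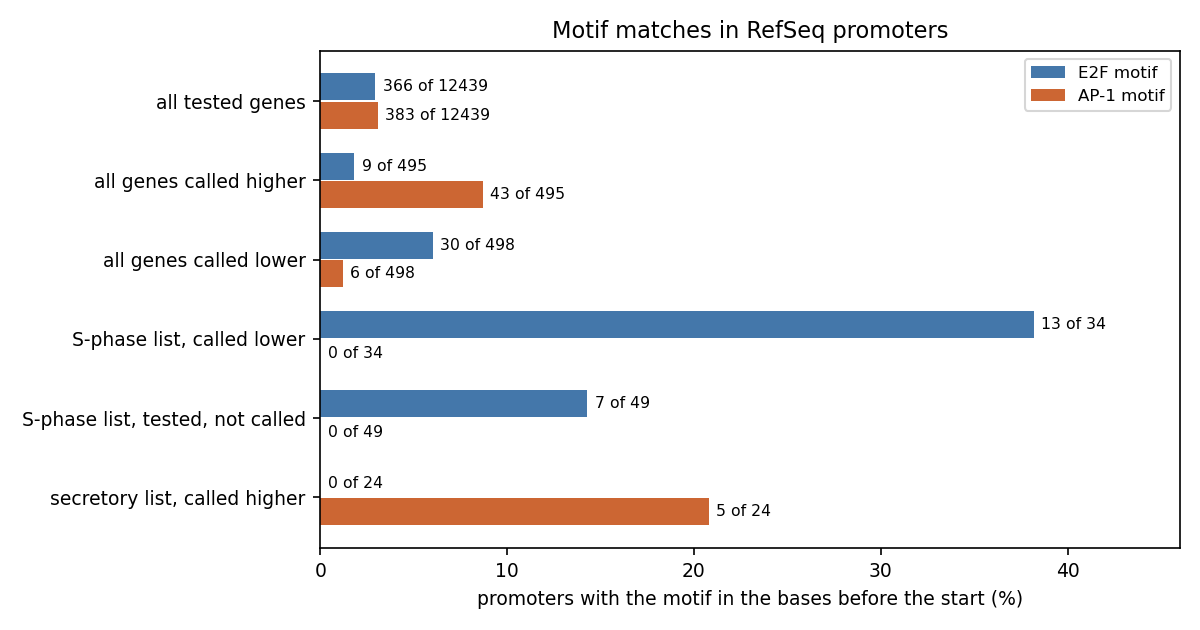
Share of RefSeq promoters with an E2F or an AP-1 motif in the bases before the start (horizontal axis, %), for all tested genes and for sets of genes called with alisertib. Labels give matches of promoters. The E2F bar is longest for S-phase genes called lower, with 13 of 34, and the AP-1 bar for secretory genes called higher, with 5 of 24.

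MCM6, a subunit of the replicative helicase (hg19 chr2:136597196-136633996), stood at 211, 177 and 172 CPM in the untreated libraries and at 128, 123 and 132 CPM with alisertib. Untreated library 1 was the highest, and the groups did not overlap. MCM6 fell by 0.55 ± 0.074 on the log2 scale (adjusted p = 0.000573). GINS2, a subunit of the GINS complex of the same helicase, went from 35.9, 30.5 and 30.5 CPM to 23.8, 22.1 and 22.7 CPM, and CDC45, which completes that helicase, from 37.2, 38.3 and 39.5 CPM to 30.3, 28.1 and 26.8 CPM. They fell by 0.50 ± 0.074 and 0.43 ± 0.058. ORC1 and MCM4 fell by 0.34 and 0.27. The licensing factor CDC6 was not called, at -0.19 with an adjusted p of 0.165, and its groups overlapped, with 124, 103 and 98.4 CPM untreated and 95.6, 90.4 and 98.2 CPM treated.

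At the fork, PCNA, the sliding clamp of the polymerases, stood at 192, 169.6 and 164 CPM untreated and 139, 127 and 136 CPM treated, a fall of 0.39 ± 0.059 (adjusted p = 0.00132). LIG1, the ligase that joins Okazaki fragments, stood at 43.2, 57.3 and 55.9 CPM and 38.2, 36 and 32.9 CPM. Here untreated library 1 was the lowest of its group and still above every treated library. LIG1 fell by 0.55 ± 0.10 (adjusted p = 0.00463). The primase subunit PRIM1, the polymerase genes POLE and POLA1 and the fork protection gene TIMELESS fell by 0.46, 0.44, 0.42 and 0.39, the call of POLE being lost in 5 of 18 other settings. The single-strand binding subunit RPA1 and the clamp loader subunit RFC1, at -0.08 and -0.03, were not called.

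TYMS, thymidylate synthase, stood at 290.1, 271 and 263 CPM untreated and 213, 202 and 214 CPM treated and fell by 0.39 ± 0.046 (adjusted p = 0.000193). The TYMS locus overlaps ENOSF1, and the kit does not mark the strand, so reads of such a pair can be shared. DUT, which clears dUTP, fell by 0.36. The purine genes PAICS and IMPDH2 were not called, at -0.07 and -0.02.

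Among regulators, E2F2 stood at 10.5, 12.1 and 11.7 CPM untreated and 8.44, 8.47 and 8.31 CPM treated and fell by 0.45 ± 0.077 (adjusted p = 0.00289). The repressive factor E2F8 and SKP2, which targets CDK inhibitors for degradation, fell by 0.36 and 0.36. E2F1 fell by 0.35, a call lost in 5 of 18 other settings. CCNA2 and CDK2, at -0.06 and -0.11, were not called. The single S-phase gene that rose, E2F7, a repressive E2F named after its values were seen, did so by 0.16 ± 0.042. In chromatin assembly HELLS, a chromatin remodeller, went from 68.2, 61 and 62.3 CPM to 42.4, 44.1 and 47.5 CPM and fell by 0.52 ± 0.062. The CAF-1 subunit CHAF1B and the histone chaperone NASP fell by 0.39 and 0.35.

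Homologous recombination and Fanconi genes, many of them also transcribed in S phase, fell in 10 of 28 cases (35.7%) and rose in 0, against 3.19% and 3.55% of all genes, with a median of -0.21. None was higher at an unadjusted p under 0.05 or by DESeq2. The helicase gene BRIP1 went from 57.4, 52.8 and 58 CPM to 39.2, 41.7 and 42.6 CPM and fell by 0.45 ± 0.059 (adjusted p = 0.000533). FANCA, EXO1 and BRCA1 fell by 0.42, 0.38 and 0.31. BRCA2 had a larger change, -0.81 ± 0.20, from 16.3, 20.3 and 27 CPM to 9.39, 12 and 15 CPM, and its call was lost in 8 of 18 other settings. With the 4 libraries apart left out, 12 of the list fell and 1 rose, against 13.5% and 11.0% of all genes.

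**Figure D2:**
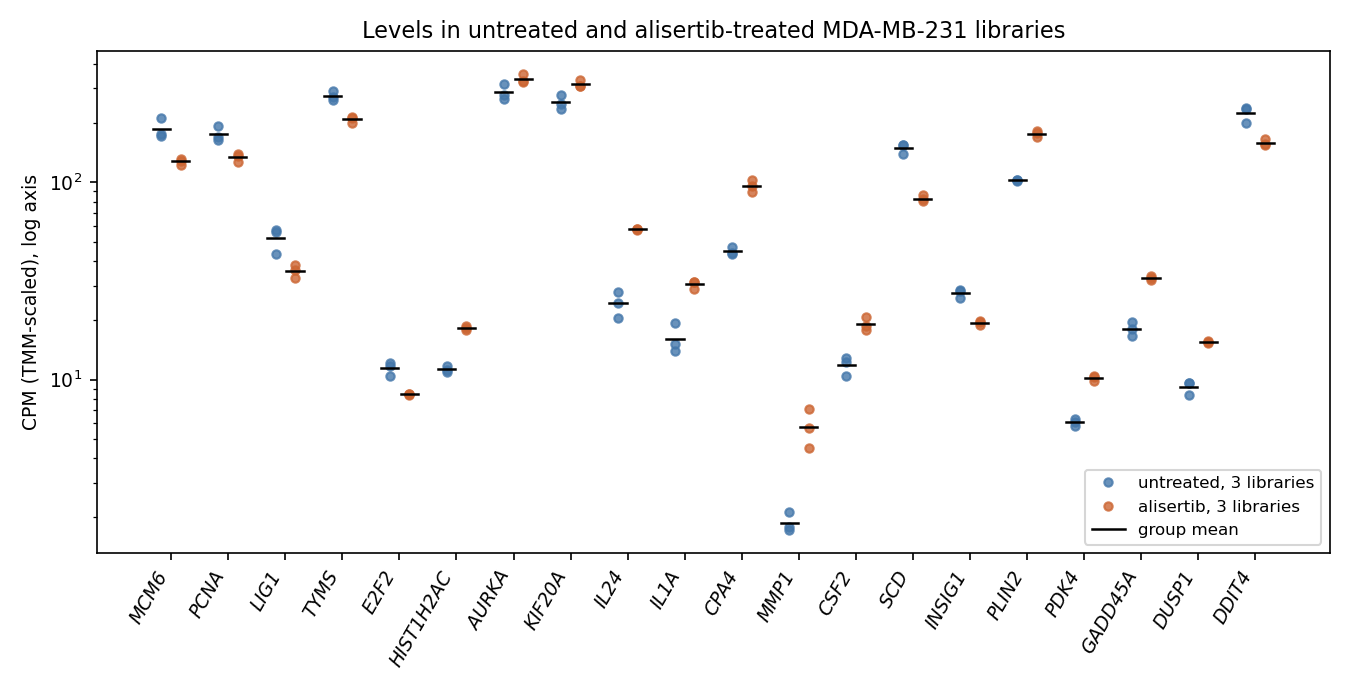
Level of 20 genes named in the text (vertical axis, CPM on a log axis) in each untreated (blue) and alisertib (orange) library, with the group mean as a bar. MCM6 lies at 172 to 211 CPM untreated and 123 to 132 CPM treated, and IL24 at 20.6 to 27.8 and 57.4 to 58 CPM.

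Several clustered histone genes rose. Of 36 on the list 19 passed the filter, and of these 8 rose (42.1%, against 3.55% of all genes) and 0 fell, with a median of 0.45 among those tested. DESeq2 and an unadjusted p under 0.05 also gave 0 lower. HIST1H2AC, an H2A gene, stood at 11.7, 11.2 and 11 CPM untreated and 17.9, 18.6 and 18.3 CPM treated and rose by 0.69 ± 0.066 (adjusted p = 3.93e-05). HIST1H2BC went from 0.993, 1.24 and 1.07 CPM to 1.93, 2.01 and 2.15 CPM, and HIST1H2BJ from 1.85, 2.03 and 1.82 CPM to 3.29, 3.85 and 3.17 CPM, rises of 0.88 ± 0.13 and 0.86 ± 0.14. The linker histone gene HIST1H1C, at 0.45, was not called (adjusted p = 0.0664). Most of these messages end in a stem-loop in place of a poly(A) tail and their genes are near-identical copies, so the value of a single member is uncertain. The part of tailed forms in the counts was not tested, so these rises may not stand for all histone messages. With those 4 libraries left out 9 rose and 0 fell, against 11.0% and 13.5% of all genes.

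The mitosis list did not move in 1 direction. Of 67 genes tested 4 rose and 4 fell (5.97% each way, against 3.55% of all genes higher and 3.19% lower), with a median of -0.00. AURKA, the gene of the target (hg19 chr20:54944445-54967393), stood at 317, 277 and 266 CPM untreated and 328, 324 and 357 CPM with alisertib. The groups did not overlap, with untreated library 1 the highest untreated value and alisertib library 9 the highest treated one. AURKA rose by 0.23 ± 0.063 (adjusted p = 0.0431), a call lost in 10 of 18 other settings. Alisertib blocks the protein, so the level of its message does not check the labels. AURKB was not called, at -0.06, nor was the activator gene TPX2, at 0.11.

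Late mitotic genes that rose were UBE2C, the ubiquitin-conjugating enzyme of the anaphase-promoting complex, and KIF20A, a kinesin of cytokinesis. KIF20A stood at 278, 249.9 and 236 CPM untreated and 307, 309 and 333 CPM treated and rose by 0.31 ± 0.057 (adjusted p = 0.00464). UBE2C rose by 0.21 ± 0.044, a call lost in 1 setting, and CDCA8, a subunit of the chromosomal passenger complex, by 0.17. The kinetochore gene ZWINT fell by 0.31 ± 0.042, from 184 ± 3.18 to 149 ± 5.61 CPM. SPC24, also of the kinetochore, fell by 0.36, and its locus overlaps another gene. The other members that fell were NEDD9, an activator of Aurora A, by 0.30, and CEP192, its centrosomal scaffold, by 0.21. The calls of CDCA8, SPC24 and CEP192 were each lost in 4 of 18 other settings and that of NEDD9 in 5. PLK1, CCNB1 and BUB1 were not called, at 0.05, 0.09 and 0.16, and CDC20 lay next to the threshold, at 0.21 with an adjusted p of 0.0502. Each of CCNB1, BUB1 and CDC20 was called higher in some of the 18 other settings, in 2, 3 and 7 of them, with lowest adjusted p-values of 0.00392, 7.1e-05 and 0.000189. TPX2 was called in 3. The list depends on library untreated 1: without it 16 members rose. Over all tested genes 1377 of 21061 rose in that setting, against 730 of 20571 with all libraries. Without the 4 libraries apart 21 members rose and 14 fell, against 11.0% and 13.5% of all genes. Without untreated library 3, alisertib 7 or alisertib 9 the number that rose was 2. Over all tested genes 437, 416 and 450 rose in these settings.

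A further list held CDK inhibitors, D cyclins and lamin B genes, and also HMGA1 and HMGB2. Of its 18 tested genes 1 rose (5.56%) and 2 fell (11.1%), against 3.55% and 3.19% of all genes. Without the 4 libraries apart 1 rose and 7 fell, against 11.0% and 13.5% of all genes. CCND1, which encodes cyclin D1, rose by 0.18 ± 0.04, and CDKN2C and LMNB1 fell by 0.35 and 0.28, all 3 calls being lost in 4 or 5 of 18 other settings. CDKN1A, the p21 inhibitor, is not among the genes counted in this list. It stood at 53.3, 65.5 and 65.3 CPM untreated and 76.2, 75.8 and 68 CPM treated and was not called (0.26 ± 0.088, adjusted p = 0.108). It was called higher in 2 of 18 other settings, those that leave out or mark the 4 libraries apart (lowest adjusted p = 6.51e-06).

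Many genes of secreted and inflammatory proteins rose. Of 119 tested 31 rose (26.1%, against 3.55% of all genes) and 6 fell (5.04%), with a median of 0.12. Interleukins and colony-stimulating factors rose in 9 of 17 cases and fell in 0 (3 at an unadjusted p under 0.05, 0 by DESeq2), and secreted proteases and their inhibitors rose in 11 of 36 and fell in 1. Growth factors and binding proteins rose in 7 of 32 and fell in 3, chemokines in 1 and 2 of 13, and NF-kB feedback and adhesion genes in 3 and 0 of 21 (4 lower at an unadjusted p under 0.05, 1 by DESeq2). Leaving out the 4 libraries apart, 44 of the 119 rose and 20 fell, against 11.0% and 13.5% of all genes.

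AP-1 is a known activator of several of these genes, and promoter stretches of 3 that rose are shown for that reason. They are from RefSeq (GRCh38.p14) on the strand of the gene, with matches to TGAGTCA on either strand in capitals: IL1A (chr2:112784494-112784593, minus strand), IL11 (chr19:55370507-55370606, minus strand) and CPA4 (chr7:130293061-130293160, plus strand).
IL1A: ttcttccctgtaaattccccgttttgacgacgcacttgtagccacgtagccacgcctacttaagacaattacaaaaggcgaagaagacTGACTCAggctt
IL11: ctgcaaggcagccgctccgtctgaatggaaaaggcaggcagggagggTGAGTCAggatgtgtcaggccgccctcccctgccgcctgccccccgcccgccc
CPA4: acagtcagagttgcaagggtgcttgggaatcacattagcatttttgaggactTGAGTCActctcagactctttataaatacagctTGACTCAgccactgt

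The AP-1 letters stood in the 250 bases before the start of 5 of 24 secretory genes that rose and had a promoter entry (20.8%). Over all genes called higher they stood in 43 of 495 (8.69%), over all called lower in 6 of 498 (1.2%), over all tested genes in 383 of 12439 (3.08%) and over all promoters in 4.16%. Over the secretory genes tested, called or not, they stood in 9 of 83 (10.8%). CPA4 held 2 matches, the nearer beginning 15 bases before the start, and the match of IL1A began 12 bases before it. IL11 was chosen for its sequence after its values were seen.

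IL24, a cytokine of the interleukin-10 family (hg19 chr1:207070788-207077484), stood at 27.8, 24.6 and 20.6 CPM untreated and 58, 57.4 and 57.9 CPM treated. The treated libraries lay within 1 CPM of each other and above every untreated one. IL24 rose by 1.25 ± 0.13 (adjusted p = 8.45e-05). The alarmin IL1A went from 19.4, 15.1 and 14 CPM to 31.2, 28.8 and 31.2 CPM and rose by 0.91 ± 0.098. IL1B, its secreted relative, went from 3.32, 4.17 and 3.98 CPM to 7.46, 7.13 and 7.59 CPM and rose by 0.95 ± 0.099. The colony-stimulating factor genes CSF2 and CSF3 rose by 0.69 and 1.03, and IL11 by 0.55. CSF1, at -0.29, was not called, but was called lower in 3 of 18 other settings (lowest adjusted p = 1.63e-07). IL1RN, the antagonist of the interleukin-1 receptor, rose by 0.64, a call lost in 10 of 18 other settings.

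Chemokines went both ways. CCL26 rose by 1.21 ± 0.18, at 0.444 ± 0.0319 CPM untreated and 1.03 ± 0.0787 CPM treated. CCL28 went from 13.1, 14.4 and 14.9 CPM to 8.7, 9.62 and 9.69 CPM and fell by 0.60 ± 0.077, and CCL2 fell by 0.62, a call lost in 7 of 18 other settings. The abundant IL8 (CXCL8) and CXCL1, at 0.08 and 0.02, were not called. TNFAIP3, the A20 inhibitor of NF-kB, rose by 0.41 ± 0.046, from 24, 23.2 and 23.2 CPM to 31.1, 30.9 and 31.6 CPM, and kept its call in all 18 other settings.

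Among proteases CPA4, a secreted carboxypeptidase (hg19 chr7:129932974-129964020), stood at 43.1, 47.1 and 44.1 CPM untreated and 95.4, 102 and 89.7 CPM treated, a rise of 1.10 ± 0.071 (adjusted p = 3.32e-06). MMP1, the interstitial collagenase, stood at 2.13, 1.72 and 1.78 CPM and 5.67, 4.48 and 7.08 CPM. Its treated libraries differed more among themselves than those of CPA4, and all were above the untreated ones. MMP1 rose by 1.61 ± 0.15 (adjusted p = 4.31e-05). SERPINB2 had the largest fold change of the list, 2.08 ± 0.42, at a level under 0.4 CPM in every library. The urokinase gene PLAU, at 0.11, was not called.

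ANGPTL4, a secreted inhibitor of lipoprotein lipase, rose by 1.47 ± 0.23 (adjusted p = 0.00139), from 1.69, 3.85 and 3.17 CPM to 8.45, 8.16 and 7.54 CPM. That was the largest rise among called genes of at least 5 CPM without overlap of the groups, clone-based and non-coding symbols left out. NRG1, a ligand of the ERBB receptors, and FGF5 rose by 0.51 and 1.07. ANGPT1, a ligand of the TIE2 receptor, fell by 0.87 ± 0.10, from 7.65, 9.13 and 8.72 CPM to 4.42, 4.72 and 4.77 CPM, and BMP4 fell by 0.35. CYR61 and VEGFA, at 0.08 and -0.01, were not called. Of 8 leukocyte markers tested only CD68 was called, higher with alisertib by 0.35, a call lost in 10 of 18 settings. The list median was -0.05, and CD14, at -0.57, was not called. Of 4 endothelial markers tested TIE1 and ESAM were called higher, ESAM by 0.52. KDR and TEK, at 0.31 and -0.18, were not called. The part of such markers in the secretory genes was not tested.

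**Figure D3:**
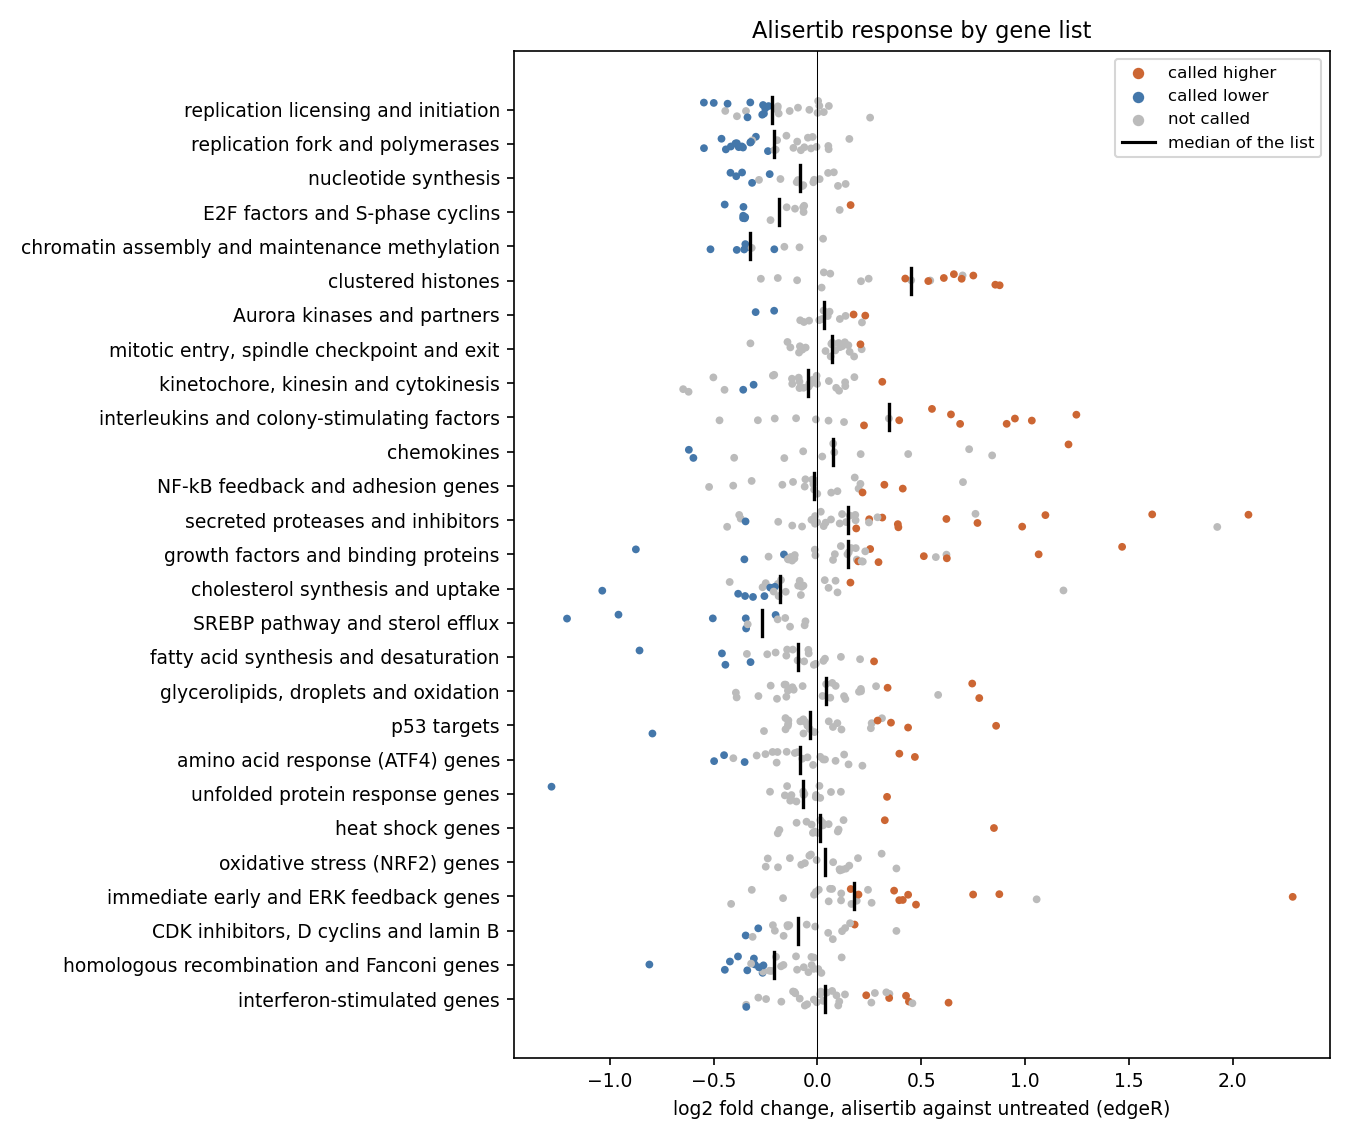
Log2 fold change of alisertib against untreated cells (horizontal axis) for the 594 tested members of 27 gene lists. Each point is a gene, orange or blue where it was called higher or lower and grey where it was not, and the black bar is the median of the list. The 5 lists of S-phase genes lie mostly to the left of 0, with 40 of 97 genes called lower, and clustered histones and interleukins to the right.

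Lipid genes that fell were mostly those of synthesis and its control. Of 86 tested 17 fell (19.8%, against 3.19% of all genes) and 5 rose (5.81%), with a median of -0.13. Genes of cholesterol synthesis and uptake fell in 7 of 26 cases and rose in 1, and genes of fatty acid synthesis and desaturation fell in 4 of 21 and rose in 1. A list of SREBP regulators and sterol efflux genes fell in 6 of 12 cases and rose in 0 (0 at an unadjusted p under 0.05, 0 by DESeq2). Of these 6, SREBF1, SREBF2, INSIG1 and MBTPS2 belong to the SREBP pathway, and MYLIP and ABCG1 are known targets of the LXR sterol receptors. The calls of MBTPS2 and MYLIP were lost in 14 and 5 of 18 other settings. Genes of glycerolipids, droplets and oxidation rose in 3 of 27 and fell in 0 (5 at an unadjusted p under 0.05, 1 by DESeq2). Without the 4 libraries apart 37 fell and 13 rose, against 13.5% and 11.0% of all genes. With only the 6 libraries in the fit 8 fell, against 1.38% of all genes. Without untreated library 2, untreated 3, alisertib 8 or alisertib 9 the number was 9. Over all tested genes 381, 294, 300 and 373 fell in these settings.

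SCD, the desaturase that makes oleate (hg19 chr10:102106881-102124591), stood at 139.8, 155 and 155 CPM untreated and 80.3, 86.1 and 82 CPM treated. Both groups were tight and did not overlap, and SCD fell by 0.86 ± 0.057 (adjusted p = 3.36e-06), a call kept in all 18 other settings. INSIG1, which holds the SREBP complex in the endoplasmic reticulum and is itself an SREBP target, went from 26, 28.2 and 28.5 CPM to 19.6, 19.8 and 18.9 CPM and fell by 0.50 ± 0.055 (adjusted p = 9.96e-05). SREBF1, the gene of SREBP1, stood at 16.7, 27.7 and 29.7 CPM and 13.4, 13.7 and 11.1 CPM. Untreated library 1 was well below its 2 partners and above the treated libraries. SREBF1 fell by 0.96 ± 0.19 (adjusted p = 0.00653), a call lost in 2 of 18 settings, with adjusted p-values of 6.55e-10 to 0.0796 over them. SREBF2 fell by 0.34, a call lost in 13 of 18 settings.

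In the cholesterol list the sterol carrier STARD4 went from 31.8, 31.4 and 32.5 CPM to 24, 25.2 and 24.3 CPM and fell by 0.38 ± 0.052 and HMGCS1, the synthase before the rate-limiting step, by 0.31 ± 0.056, a call lost in 1 setting. The sterol exporter of lysosomes, NPC1, was the gene of that list that rose, by 0.16 ± 0.038, and was named after its values were seen. The desaturases FADS1 and FADS2 fell by 0.32 and 0.44, the second in a call lost in 5 of 18 settings, and their loci overlap. ABCG1, a sterol exporter, fell by 1.21 ± 0.23 from 1.31, 1.85 and 2.09 CPM to 0.705, 0.705 and 0.869 CPM. ACLY, at -0.01, was not called.

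The 3 genes of droplets and oxidation that rose were PLIN2, PDK4 and CPT1A. PLIN2, the coat protein of lipid droplets (hg19 chr9:19108373-19149288), stood at 102, 103 and 103 CPM untreated and 169.5, 178 and 181 CPM treated, a rise of 0.78 ± 0.046 (adjusted p = 2.62e-06). PDK4, a kinase that shuts pyruvate dehydrogenase, went from 6.12, 5.79 and 6.32 CPM to 9.88, 10.2 and 10.4 CPM and rose by 0.75 ± 0.13. CPT1A, the carnitine transferase of mitochondrial fatty acid entry, went from 111, 103 and 104 CPM to 138, 129.6 and 134 CPM and rose by 0.34 ± 0.047. The oxidation genes ACADVL and HADHA, at 0.13 and 0.07, were not called. ACSL5, which activates long-chain fatty acids, rose by 0.27 ± 0.062, a call lost in 4 of 18 settings.

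Some stress genes rose. Of 128 tested 19 rose (14.8%) and 5 fell (3.91%), against 3.55% and 3.19% of all genes, with a median of 0.00, and 10 of the 19 belonged to the 26 immediate early and ERK feedback genes. Genes of the p53 response rose in 4 and fell in 1 of 25 cases, amino acid response genes in 2 and 3 of 24, unfolded protein response genes in 1 and 1 of 18, and heat shock genes in 2 and 0 of 17 (0 lower at an unadjusted p under 0.05, 0 by DESeq2). None of 18 oxidative stress genes under NRF2 was called by edgeR, with 4 higher at an unadjusted p under 0.05 and 2 higher by DESeq2. Leaving out the 4 libraries apart, 43 stress genes rose and 26 fell, against 11.0% and 13.5% of all genes.

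GADD45A, a growth arrest gene induced by DNA damage, stood at 19.5, 18.1 and 16.6 CPM untreated and 32.2, 32.8 and 33.5 CPM treated and rose by 0.86 ± 0.063 (adjusted p = 5.65e-06). The proapoptotic PMAIP1 rose by 0.44 ± 0.061, from 67.2 ± 3.98 to 91 ± 1.12 CPM, whereas its relative BBC3 fell by 0.79, a call lost in 8 of 18 settings. MDA-MB-231 is known to carry mutant p53. The small heat shock gene HSPB8 rose by 0.85 ± 0.09, from 9.95, 8.61 and 7.71 CPM to 15.3, 15.6 and 16.4 CPM, and the abundant HSPA8 and HSP90AB1, at -0.03 and 0.10, were not called.

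In the amino acid response DDIT3, which encodes CHOP, and ATF3 rose, while DDIT4, ASNS and PSAT1 fell. DDIT3 went from 15.9, 16.4 and 15.6 CPM to 21.5, 22.3 and 22.6 CPM, a rise of 0.47 ± 0.083. DDIT4, an inhibitor of mTOR complex 1, went from 199, 239 and 237 CPM to 156, 166 and 155 CPM and fell by 0.50 ± 0.072 (adjusted p = 0.000929). ASNS, asparagine synthetase, and PSAT1, of serine synthesis, fell by 0.45 ± 0.066 and 0.35 ± 0.062. ERN1, the sensor kinase IRE1, rose by 0.34. The chaperone genes HSP90B1 and CALR were not called, at -0.10 and -0.13.

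Of the immediate early genes DUSP1, a phosphatase of MAP kinases, stood at 8.38, 9.58 and 9.66 CPM untreated and 15.3, 15.5 and 15.6 CPM treated and rose by 0.75 ± 0.077 (adjusted p = 6.78e-05). FOS and FOSB, subunits of AP-1, rose by 0.88 ± 0.19 and 2.29 ± 0.34 at levels under 1.1 CPM in every library. FOSL1, which encodes the AP-1 subunit FRA1, went from 113, 133 and 127 CPM to 176, 155 and 151 CPM and rose by 0.37 ± 0.081 (adjusted p = 0.0142). The calls of FOS and FOSL1 were each lost in 2 of 18 settings. KLF4, KLF10 and DUSP5 rose by 0.47, 0.44 and 0.41. FOSL2 and IER3, at 0.01 and 0.16, were not called.

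The response was also measured as the difference between TGFβ with alisertib and TGFβ alone. The fold changes above compare none of these libraries, though the scaling factors were computed with them. The p-values above use them through the shared filter and estimate of spread. There 428 genes were called (2.08%), 245 higher (1.19%) and 183 lower (0.890%). Of the 730 genes that rose without TGFβ, 669 (91.6%) had a positive change there, with a median of 0.20, and 141 were called higher. Of the 657 that fell, 591 (90.0%) had a negative change, with a median of -0.19, and 148 were called lower. Over all tested genes 69.0% had the same sign in both. The 289 genes called the same way in both were 20.8% of the calls without TGFβ and 67.5% of those with it, and 5 genes were called in opposite directions.

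S-phase genes fell there in 36 of 97 cases and rose in 0, with a median of -0.23, and MCM6, PCNA and TYMS fell by 0.58, 0.45 and 0.43. Clustered histones rose in 4 of 19, secretory genes rose in 17 and fell in 1 of 119, and lipid genes rose in 4 and fell in 13 of 86. Among the lipid genes, SREBP regulators and sterol efflux genes rose in 1 and fell in 1 of 12, with a median of -0.07. Stress genes rose in 9 and fell in 3 of 128. SCD fell by 0.51, PLIN2 rose by 0.63 and IL24 by 1.35. AURKA rose by 0.34 (adjusted p = 0.0121). PDK4 rose by 1.21 and IL1RN by 2.09. SREBF1, at -0.34, was not called there.

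The difference between the effects of alisertib with and without TGFβ was tested as an interaction, which called 58 genes (0.282%), 24 higher and 34 lower with TGFβ. At an unadjusted p under 0.05 there were 1170. It shares the untreated and alisertib libraries with the comparison above. None of the 97 S-phase genes, 19 histone genes and 67 mitosis genes was called in the interaction, which does not show that their effects were equal. At an unadjusted p under 0.05 there were 0 of the S-phase, 2 of the histone and 2 of the mitosis genes, and DESeq2 called 0 of each. Of 119 secretory genes 4 were called, IL11, ADAMTS6, TFPI2 and EREG, of 86 lipid genes ABCA1, and of 128 stress genes DUSP4, KLF4 and KLF10. IL11, TFPI2, ABCA1 and DUSP4 lie outside the rule for named genes and were chosen after their values were seen.

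IL11 rose by 0.55 without TGFβ, from 38.2 ± 1.3 to 56 ± 4.93 CPM, and stood at 120.0 ± 2.83 CPM with TGFβ and 123 ± 6.33 CPM with both agents, a difference of effects of -0.52 ± 0.087 (adjusted p = 0.0258). TFPI2, a serine protease inhibitor, stood at 102 ± 2.42 CPM untreated and 107 ± 2.07 CPM with alisertib, and at 51.7 ± 1.56 CPM with TGFβ and 82.9 ± 3.64 CPM with both, a difference of 0.62 ± 0.066 (adjusted p = 0.00245). ABCA1, a cholesterol exporter, went from 71.9 ± 6.21 to 63 ± 5.86 CPM without TGFβ, a change of -0.19 that was not called, and rose from 45.1 ± 2.21 to 59.6 ± 1.27 CPM with it, by 0.40. KLF4 and KLF10 rose by 0.47 and 0.44 without TGFβ and had changes of 0.05 and 0.08 with it. DUSP4 had -0.02 without TGFβ and rose by 0.29 with it. In IL11, TFPI2 and ABCA1 the libraries with TGFβ alone lay apart in level from the untreated ones, and the part of that level in the difference was not tested.

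**Figure D4:**
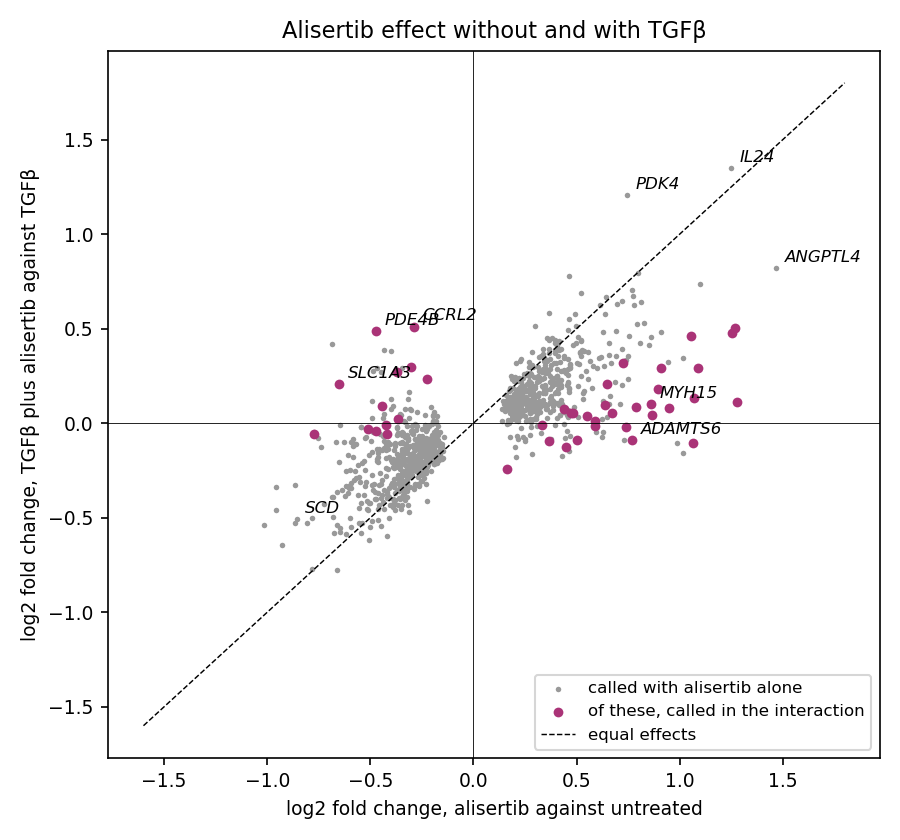
Log2 fold change of alisertib without TGFβ (horizontal axis) and with TGFβ (vertical axis) for 1008 genes called without TGFβ that had a mean of at least 5 CPM over the 12 libraries. The 43 genes also called in the interaction are purple, and the dashed line marks equal effects. IL24 lies near the line, with 1.25 and 1.35, and MYH15 below it, with 0.86 and 0.10.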

How the data were processed

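Per the labels' protocols, a miRNeasy kit gave total RNA and TruSeq RNA v2, an unstranded kit, the libraries. The submitters' processing notes name bcl2fastq, TopHat, Subread, featureCounts and the build hg19. Their versions, settings and annotation: not given in the sources used here. Deposited by the authors were whole-number read counts per gene, not normalised, and RPKM values beside them, which served only for marker levels.

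The tests ran on these counts in edgeR 4.0.16 (R 4.3.3). The filter filterByExpr kept genes with at least 0.0946 CPM in 3 or more libraries. The gene at the lower edge of those kept had a third-highest value of 0.0947 CPM, and the gene at the upper edge of those left out 0.0944 CPM. All 12 libraries entered 1 quasi-likelihood fit with TMM factors, robust dispersions and 8 residual degrees of freedom, and p-values were adjusted by Benjamini-Hochberg over the 20571 tested genes. Each SE is the size of the fold change divided by the square root of F. The fit was tested on simulated data. The 32 gene lists held 687 members, of which 630 were tested. The members and lists were chosen with earlier results of these data known, so counts over a list are descriptions beside the share of all genes.

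Named genes were the 15 highest and 15 lowest fold changes among called genes of at least 5 CPM without overlap of the groups (clone-based and non-coding symbols left out), up to 6 called and 2 uncalled members of each list, 19 fixed genes, and the 5 highest and 5 lowest interaction differences. Some of these 220 genes are not reported here. The alternatives were RLE factors, no filter, the 6 libraries alone, the 4 libraries that stood apart left out or marked by a covariate, DESeq2 1.42.0, and each library left out. Promoters were matched by symbol to RefSeq (GRCh38.p14), with 12439 entries for tested genes. GC content came from GENCODE by gene ID, for 19649 tested genes. Gene coordinates are the file's, in hg19.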

Additional observations from a re-analysis of the deposited data

Results flagged for a closer look

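The effect of alisertib differed between cells with and without TGFβ in 58 genes by the edgeR interaction test, 24 higher and 34 lower with TGFβ. The 10 below have the 5 highest and 5 lowest differences among those with a mean of at least 5 CPM over the 12 libraries, clone-based and non-coding symbols left out. Values are log2 effects without and with TGFβ and their difference ± SE. Levels in CPM are means ± SD. FAP, a serine protease of activated fibroblasts, stood at 0.294 ± 0.0814 CPM untreated and 0.615 ± 0.063 CPM with alisertib. FAP reached the mean of 5 CPM only through the libraries with TGFβ, and its effect without TGFβ rests on these low levels. Its effects of 1.06 and -0.11 differed by -1.17 ± 0.20 (adjusted p = 0.0281). ADAMTS6, a secreted metalloprotease, had effects of 0.77 and -0.09, a difference of -0.86 ± 0.096. The receptor phosphatase PTPRR had 1.09 and 0.29, a difference of -0.79 ± 0.13. The kinase gene DCLK1 had 1.25 and 0.48, a difference of -0.77 ± 0.14. The myosin heavy chain gene MYH15 had 0.86 and 0.10, a difference of -0.76 ± 0.09.

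In the other direction, the growth factor gene EREG was not called without TGFβ, at 0.19, and rose by 1.40 with it, a difference of 1.21 ± 0.18 (adjusted p = 0.0125). It stood at 19.5 ± 1.32 CPM untreated, 22.2 ± 1.28 CPM with alisertib, 1.67 ± 0.238 CPM with TGFβ and 4.4 ± 0.913 CPM with both. PDE4B, a phosphodiesterase of cyclic AMP, fell without TGFβ (-0.47) and rose with it (0.49), a difference of 0.96 ± 0.12. SLC1A3, a glutamate transporter, had -0.65 and 0.21, a difference of 0.86 ± 0.14. CNKSR3 had -0.11 and 0.70, a difference of 0.81 ± 0.14. The chemokine receptor-like gene CCRL2 had -0.29 and 0.51, a difference of 0.80 ± 0.097. Without TGFβ the calls of FAP and CCRL2 were lost in 1 and 5 of 18 other settings.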

How the results depend on the processing

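None of the 1387 genes called with alisertib alone changed sign in any of the 18 alternatives (6 other settings and 12 with 1 library left out). All 18 reuse these libraries, and the groups did not overlap in 1371 of the 1387, so few signs could have changed. The 1387 calls numbered 1307 with RLE factors, 1312 without a filter, 1736 with DESeq2, 623 with the 6 libraries alone, 5073 without libraries 1, 6, 9 and 10, 4057 with a covariate for them, and 718 to 2598 with 1 library left out. The interaction's 58 calls became 105, 744, 382 and 179 without a filter, without the 4 libraries, with the covariate and with DESeq2, and 19 to 166 with 1 library left out. The 428 calls in TGFβ-treated cells became 1434, 1820 and 692 in the last 3 of these, and 153 to 754. The highest of each range came without untreated library 1. S-phase genes called lower were 24 (without alisertib library 8) to 42 with 1 library left out, 58 without the 4 and 59 with the covariate. Lipid genes called lower were 8 with the 6 libraries, 37 without the 4, 34 with the covariate and 9 to 25 with 1 left out. Stress genes called higher were 43 and 36 in the latter 2 settings, and mitosis genes called higher 1 with the 6 libraries, 21, 15, and 2 to 16. Histone and secretory counts stayed within 1.5 times 8 and 31 in all 18. The causes were not tested. Fewer libraries enter where some are left out, and the 4 libraries were picked for their deviation from their groups. Of 150 named genes that were called, 100 kept their call in all 18, and of 70 that were not called 38 were called in 1 or more. No paired analysis was possible because the replicate numbers are not shared between groups. Changes of under 2-fold at these depths rest on 3 libraries a group, and the spread between cultures may be larger.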

Other observations

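Of 32 interferon-stimulated genes tested 5 rose (15.6%) and 1 fell (3.12%), against 3.55% and 3.19% of all genes, with a median of 0.04. The antiviral genes IFIT2 and IFIT3 rose by 0.44 ± 0.086 and 0.43 ± 0.078, and OASL rose from 4.96, 5.03 and 5.2 CPM to 8.44, 7.08 and 8.02 CPM, by 0.63 ± 0.087 (adjusted p = 0.000627). IFIT1 and DDX58 rose by 0.35 and 0.24, calls lost in 3 and 11 of 18 other settings. OAS3 fell by 0.34 ± 0.068, and IFI16, at -0.05, was not called. Without the 4 libraries that stood apart 7 rose and 5 fell, against 11.0% and 13.5% of all genes. In TGFβ-treated cells alisertib had 0 of the 32 called higher and 1 lower. There 7 were higher at an unadjusted p under 0.05 and 2 by DESeq2.

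Several of the largest changes lay outside the gene groups above. SYNE2, which links the nucleus to the cytoskeleton, went from 91.9, 105 and 123 CPM to 46.6, 56.3 and 65.2 CPM and fell by 0.93 ± 0.12 (adjusted p = 0.000542). The mucin MUC1 fell by 0.96 ± 0.15, from 14.1, 21.3 and 22.5 CPM to 8.68, 11.3 and 9.87 CPM, with untreated library 1 the lowest of its group. FAM111B fell by 0.78 ± 0.068 without TGFβ and by 0.77 with it. SEMA5A, a guidance ligand, fell by 0.86 ± 0.10 and the acetate-activating enzyme ACSS1 by 0.77 ± 0.12. CYP1A1, a target of the aryl hydrocarbon receptor, rose from 12.2, 10.5 and 10.6 CPM to 20.5, 18.2 and 19.1 CPM, by 0.80 ± 0.11 without TGFβ and 0.79 with it. DIO2, a deiodinase of thyroid hormone, and the basement membrane collagen gene COL4A6 rose by 0.91 ± 0.14 and 0.81 ± 0.10. The cystatin CST1 and the secretory granule gene SCG5 rose by 0.91 ± 0.077 and 0.90 ± 0.073.

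In the 57 mitosis genes with a promoter entry, the letters TTTGAA (the core of the cell cycle genes homology region) stood in the 250 bases before the start of 28 (49.1%), against 8.88% of promoters of tested genes, and these genes did not move in 1 direction. The CCAAT box stood in 7 of the 8 histone genes that rose (87.5%) and in 13 of the 16 tested histone genes with an entry (81.2%), against 34.4% of promoters of tested genes.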
